A study of Ovis aries with 6 samples.

Results

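The genes described here are molecular chaperones of the heat shock response and genes of the unfolded protein response, chosen by symbol from a list of 35. Of these, 34 were matched to 1 row each of the count table, which lists 33609 genes, and HSPE1 was not analysed here. All 34 had a mean level above the minimum of 0.2 CPM over the 6 pools. Here CPM scales each gene's count to its pool's total over the tested genes, after that total is multiplied by a TMM scaling factor. The lowest of them, EDEM1, ran from 14.3 to 20.4 CPM, so the minimum removed no gene, and all 34 were among the 18019 genes with enough counts to be tested. They were divided by compartment into 10 cytosolic, 22 endoplasmic reticulum and 2 mitochondrial genes.

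The choroid plexus is a tissue of the brain ventricles whose epithelium secretes cerebrospinal fluid. It was taken from thyroid-intact ewes kept in short days (Short) or long days (Long) and from thyroidectomised ewes kept in long days (THX). The design text gives 8 ewes per group and 7 in the THX group, although it also states 24 ewes in all. RNA was extracted from each ewe and mixed in equal amounts into 2 pools per group, each of 3 to 4 ewes. Each p-value therefore measures the spread between pools and not between ewes, and the labels give no breed, age, hormone level or length of treatment. In bulk RNA fewer cells of a type and less RNA per cell cannot be told apart.

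Chaperones are proteins that bind unfolded chains and help them fold. In the cytosol and nucleus the heat shock response is switched on when the transcription factor HSF1 is freed from chaperones that hold it, and the inducible HSP70 gene HSPA1A is its best known target. In the endoplasmic reticulum (ER), where secreted and membrane proteins fold, the sensors EIF2AK3 (PERK), ERN1 (IRE1) and ATF6 respond to unfolded chains and raise the output of ER chaperones such as HSPA5 (BiP), partly through splicing of the XBP1 messenger. A secretory epithelium such as that of the choroid plexus carries a heavy load of folding in this compartment. Counts per gene hold neither the spliced form of XBP1 nor the phosphorylation and cleavage by which the sensors act.

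Total counts ran from 48282883 to 82100653 per pool. TTR (transthyretin), the marker carrier protein of the choroid plexus epithelium, lay between 86397 and 140707 CPM in the 6 pools. KLF9, a thyroid hormone target, was at 99.98 and 88.3 CPM in Short, 93.2 and 89.9 in Long and 36.1 and 34.1 in THX pools (THX against Long, log2 difference −1.38, adjusted p = 0.0053), and HR, another such target, was at 25.6 and 25.3 CPM in Short, 23.7 and 23.4 in Long and 3.36 and 2.76 in THX pools, so both followed the thyroidectomy label. Over all genes tested, 51 changed between THX and Long pools (0.283%, with 0.0499% higher and 0.233% lower), 0 between Long and Short (0%) and 165 between THX and Short (0.916%, with 0.316% higher and 0.599% lower). A gene is said to have risen, fallen or changed where its p from the quasi-likelihood test of edgeR, adjusted over all 18019 genes, was under 0.05.

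None of the 34 chaperone and stress response genes changed in any of the 3 comparisons. At an unadjusted p under 0.05, 4 of them differed between THX and Long pools (11.8%, against 9.08% of all genes tested), 1 higher and 3 lower (4.16% and 4.92% of all genes). Between Long and Short pools 15 did (44.1%, against 13.8%), 11 higher and 4 lower (6.47% and 7.33% of all genes). Between THX and Short pools 9 did (26.5%, against 22.6%), 6 higher and 3 lower (10.8% and 11.8% of all genes). The pools of the 2 groups did not overlap in 12 of the 34 in THX against Long, 3 higher and 9 lower (18.5% and 18.7% of all genes), in 23 in Long against Short, 17 higher and 6 lower (26.7% and 26.8%), and in 12 in THX against Short, 7 higher and 5 lower (25.7% and 26.7%). Log2 differences were above 0 for 8 of the 34 in THX against Long, 23 in Long against Short and 19 in THX against Short, where 50.3%, 49.7% and 49% of all genes were. DESeq2 called 2, 2 and 7 of the 34 in THX against Long, Long against Short and THX against Short, where it called 2.49%, 1.12% and 12.1% of the genes to which it gave an adjusted p. By limma-voom 0 of the 34 were called in each, against 0.25%, 0% and 0.977% of all genes. The 3 comparisons share pools, so their values are set side by side and are not counted as independent.

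**Figure D1:**
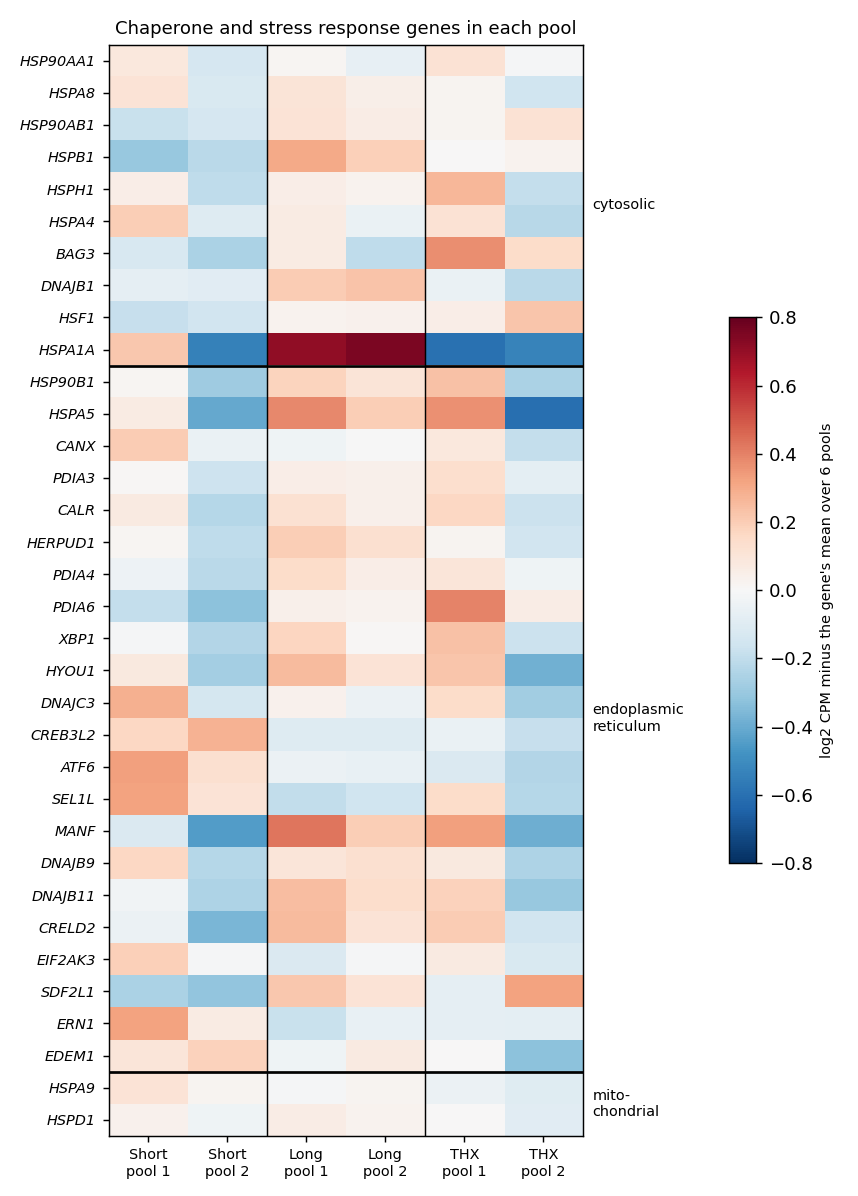
Each row is a gene and each column a pool. The colour is the gene's log2 CPM minus its mean over the 6 pools, with red above and blue below that mean, and black lines separate groups and compartments. HSPA1A is highest in both Long pools, at 73.2 and 75.3 CPM, and all ER genes but ERN1 have their lowest value in Short pool 2 or THX pool 2.

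Among the cytosolic genes HSPA1A, the stress-inducible HSP70, had the widest range over the pools, 2.55-fold from lowest to highest. HSPA1A (identifier 100913152) was at 52.0 and 30.8 CPM in Short pools, 73.2 and 75.3 in Long pools and 29.6 and 30.9 in THX pools. Both Long pools lay above the other 4, and the Short pools lay apart from each other, 1 near the THX level and 1 midway. HSPA1A was 2.46-fold lower in THX than in Long pools without passing the test (log2 difference −1.30, SE 0.217, adjusted p = 0.104). In Long against Short pools it was 1.80-fold higher (log2 difference 0.84, SE 0.214, adjusted p = 0.342), and in THX against Short pools the log2 difference was −0.46 (adjusted p = 0.257). Of 15 alternatives only DESeq2 called the Long against Short difference of HSPA1A (adjusted p = 0.0157). Both values against Short rested on which Short pool was used: Long against Short was 1.28 without Short pool 1 and 0.52 without Short pool 2, and THX against Short was −0.02 and −0.78.

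The THX against Long value of HSPA1A barely moved with the pools used, but its adjusted p did. The log2 difference ran from −1.35 to −1.27 over all 15 alternatives. In the fit of only the 4 pools compared the adjusted p was 0.0061 by edgeR. It was 0.00709 without Short pool 1, 0.00799 without Short pool 2 and 0.0038 with no filter on low counts, and DESeq2 gave 2.65e-07. It was 0.432 and 0.450 without Long pool 1 or 2, 0.249 and 0.192 without THX pool 1 or 2, and 0.111 by limma-voom. Reads from near-identical HSP70 copies may be split in counting, so the level of this gene carries that uncertainty. HSPA1L, a testis-enriched HSP70 gene whose span overlaps HSPA1A in the reference table, was at 11.1 and 9.55 CPM in Long and 11.4 and 8.72 CPM in THX pools (log2 difference −0.04, adjusted p = 0.988).

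HSPA6, another inducible HSP70 gene, from the list of further cytosolic chaperones, also had its highest levels in Long pools. It was at 5.72 and 6.63 CPM in Short pools, 10.5 and 13.9 in Long pools and 5.05 and 4.85 in THX pools. Both Long pools lay above the other 4, as for HSPA1A. HSPA6 was 2.47-fold lower in THX than in Long pools (log2 difference −1.31, SE 0.183, adjusted p = 0.0589) and 1.98-fold higher in Long than in Short pools (a log2 value of 0.99, with adjusted p = 0.342), neither of which passed. With no filter on low counts the first adjusted p was 0.00667, and by DESeq2 the adjusted p was 1.97e-07 for the first and 0.00187 for the second. No other of the 15 alternatives passed for either difference.

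DNAJB1, the HSP40 cochaperone that delivers clients to HSP70 and is also heat inducible, was at 139 and 137 CPM in Short, 168 and 171 in Long and 141 and 126 in THX pools. The Long pools again lay above all others. The log2 difference was −0.35 in THX against Long pools (SE 0.0787, adjusted p = 0.213) and 0.30 in Long against Short pools (SE 0.0786, adjusted p = 0.342). DESeq2 called the first of these (adjusted p = 0.0132), and no other of the 15 alternatives did. Immediate early genes, which respond quickly to handling and stimulation, had 21 of 24 above 0 in Long against Short (median log2 difference 0.26). The pools did not overlap in 11 of them (45.8%, against 53.5% of all genes tested), 9 higher and 2 lower (26.7% and 26.8% of all genes). In THX against Long 21 of 24 lay below 0 (median −0.25). There the pools did not overlap in 9 (37.5%, against 37.2%), 0 higher and 9 lower (18.5% and 18.7% of all genes). None changed in either comparison. The summed level of the 25 listed was 558 and 680 CPM in Short, 739 and 655 in Long and 542 and 628 in THX pools. In this sum Long pool 2 lay below Short pool 2, but the sum gives most weight to abundant genes. The median over the 24 tested genes, each centred on its own mean log2 level, was nearly equal in these 2 pools. The part of the immediate early genes in the values of HSPA1A, HSPA6 and DNAJB1 was not tested. HSPB1, the small heat shock protein HSP27, was at 389 and 413 CPM in Short, 592 and 549 in Long and 482 and 491 in THX pools. Its 3 groups did not overlap, with Long highest and Short lowest. HSPB1 had the lowest unadjusted p of the 34 genes in Long against Short pools (log2 difference 0.51, SE 0.0781, adjusted p = 0.342). That difference passed by DESeq2 (adjusted p = 9.94e-06) and in no other of the 15 alternatives. In THX against Long pools the log2 difference of HSPB1 was −0.23 (adjusted p = 0.427). In THX against Short pools it was 0.28 (adjusted p = 0.123), which passed by DESeq2 (adjusted p = 0.0136) and in no other of the 15 alternatives.

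BAG3, the cochaperone that links HSP70 to selective autophagy, had its highest levels in THX pools. It was at 279 and 256 CPM in Short, 319.8 and 266 in Long and 396 and 338 in THX pools. The THX pools did not overlap either other group, while the Short and Long pools overlapped. The log2 difference was 0.33 in THX against Long pools (SE 0.12, adjusted p = 0.473) and 0.46 in THX against Short pools (SE 0.12, adjusted p = 0.111). The latter passed in 3 of 15 alternatives. Its adjusted p was 0.0432 with the pool number as a block, 0.0413 with no filter on low counts and 0.00658 by DESeq2. HSF1, the transcription factor of the response, was at 51.7 and 52.8 CPM in Short, 59.9 and 60.3 in Long and 61.1 and 68.7 in THX pools, a set of 3 groups with no overlap. The log2 difference of HSF1 was 0.31 in THX against Short pools (SE 0.083, adjusted p = 0.113), and 0.40 without THX pool 1. That difference passed by DESeq2 (adjusted p = 0.0216) but not by limma-voom. In Long against Short the value was 0.20 and in THX against Long pools 0.11 (adjusted p = 0.357 and 0.82).

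**Figure D2:**
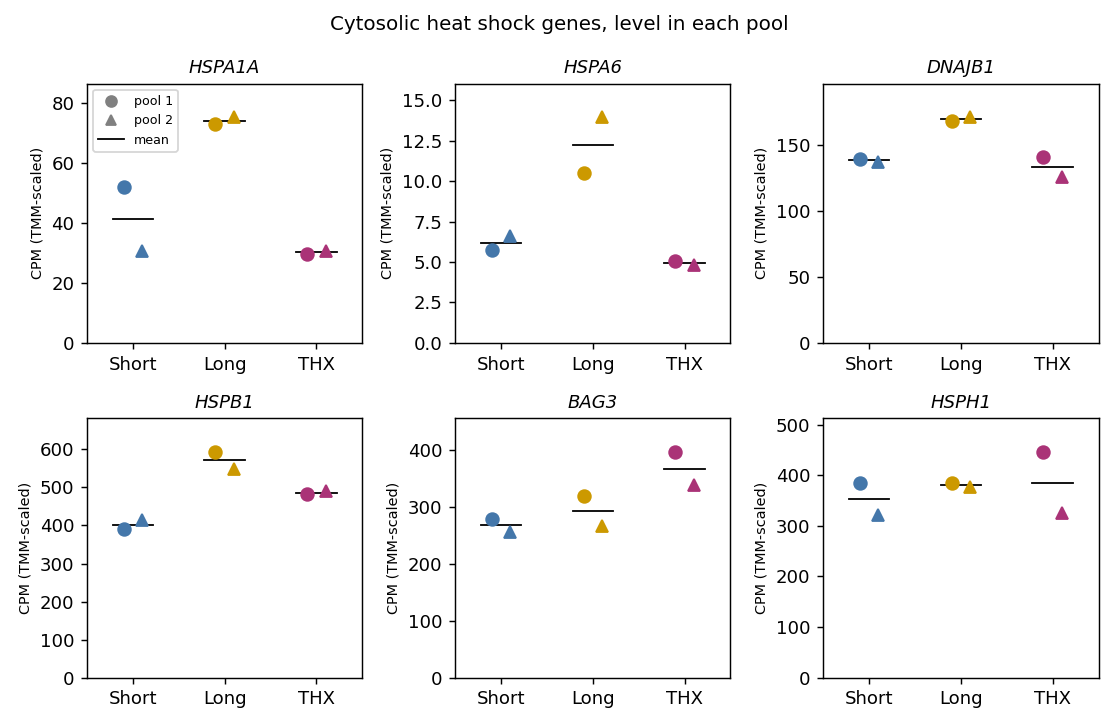
The CPM of 6 cytosolic genes is plotted by group, with a circle for pool 1, a triangle for pool 2, a line at the mean and axes from 0. HSPA1A and HSPA6 are highest in Long pools, BAG3 is highest in THX pools, and the THX pools of HSPH1 lie on both sides of the Long pools at 445 and 324 CPM.

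The HSP90 pair and the remaining HSP70 and HSP110 genes had no log2 difference that passed the edgeR test. HSP90AA1, the HSP90 alpha chaperone of kinases and steroid receptors, was at 3017 and 2603 CPM in Short, 2878 and 2721 in Long and 3087 and 2832 in THX pools, with overlap in every comparison. Its log2 difference in THX against Long pools was 0.08, with a 95% interval from −0.15 to 0.31 (adjusted p = 0.923). HSP90AB1, the constitutive HSP90 beta, was at 828 and 854 CPM in Short, 1010.5 and 975 in Long and 949 and 1015 in THX pools. Both Short pools of HSP90AB1 lay below the other 4, with log2 differences of 0.24 in Long against Short (SE 0.0762, adjusted p = 0.342) and 0.22 in THX against Short pools (adjusted p = 0.16). The latter passed by DESeq2 (adjusted p = 0.041) and in no other of the 15 alternatives.

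HSPA8, the constitutive HSP70 that uncoats clathrin vesicles, was at 1044 and 889 CPM in Short, 1038 and 996 in Long and 979.7 and 865 in THX pools. The log2 difference of HSPA8 was −0.14 in THX against Long pools (95% interval −0.39 to 0.11, adjusted p = 0.821). HSPH1, the HSP110 exchange factor of HSP70, was at 384 and 322 CPM in Short, 384 and 377 in Long and 445 and 324 in THX pools, so the 2 THX pools lay on both sides of the Long pools. Its log2 difference in THX against Long pools was 0.02 (95% interval −0.35 to 0.38, adjusted p = 0.995). HSPA4, a related HSP110 protein, ran from 269.6 to 360.2 CPM with overlap in every comparison.

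As a group the 10 cytosolic genes lay 4 above and 6 below 0 in THX against Long pools (median log2 difference −0.034, against 0.0011 over all genes tested), 8 above and 2 below in Long against Short (median 0.17) and 6 above and 4 below in THX against Short (median 0.10). Without THX pool 1 the first median was −0.22, with 4 of 10 still above 0. The last was 0.20 without Short pool 1, −0.01 without Short pool 2 and −0.06 without THX pool 1. The wider list of 44 cytosolic chaperones and cochaperones had 43 tested members and no gene that changed in any comparison. In Long against Short pools 33 of the 43 lay above 0 (median 0.12), with the HSP90 cochaperone FKBP4 at 0.33 and the ubiquitin ligase partner CACYBP at 0.31 (adjusted p = 0.342 for both). In THX against Long pools 16 lay above and 27 below 0. HSPB6, a small heat shock protein of smooth muscle, was at 58.0 and 61.9 CPM in Long and 22.2 and 37.2 in THX pools (difference of −1.01 on the log2 scale, SE 0.213, adjusted p = 0.186). The summed level of 7 mural cell markers was 1047 and 1012 CPM in Long and 857 and 1005 CPM in THX pools, and its part in the HSPB6 value was not tested. All 14 subunits of the CCT chaperonin and prefoldin, which fold actin and tubulin, lay above 0 in Long against Short pools (median 0.19) and 13 of 14 in THX against Short (median 0.18). PFDN5 was at 195 and 215 CPM in Short, 257 and 259 in Long and 277 and 317 in THX pools (THX against Short, log2 difference 0.54, adjusted p = 0.0558).

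In the ER set the 2 pools of the Short and THX groups often lay far apart. HSPA5, the HSP70 of the ER and the main binder of the stress sensors, was at 851 and 612 CPM in Short, 1063 and 935 in Long and 1051 and 537 in THX pools (identifier 780447). THX pool 1 lay within the Long range, whereas THX pool 2 was the lowest of all 6 at 1.96-fold below it. The mean was 794 ± 363 (SD, n = 2) CPM in THX against 999 ± 90.5 in Long pools (log2 difference −0.33, SE 0.299, 95% interval −1.04 to 0.38, adjusted p = 0.869). The log2 difference was 0.074 without THX pool 2, so its sign rested on that pool.

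HSP90B1, the ER form of HSP90 known as GRP94, was at 997 and 809 CPM in Short, 1117 and 1058 in Long and 1162 and 828 in THX pools. HYOU1, the exchange factor of HSPA5, was at 167 and 131 CPM in Short, 189 and 171 in Long and 185 and 121 in THX pools. MANF, a secreted stress-induced protein that binds HSPA5, was at 69.2 and 55.1 CPM in Short, 101 and 86.1 in Long and 94.1 and 57.3 in THX pools. In each of these 3 genes the pool 2 levels of Short and THX were the 2 lowest of the 6. Their log2 differences in THX against Long pools were −0.13, −0.23 and −0.31, with none passing (adjusted p = 0.936, 0.86 and 0.821). Without THX pool 2 the value of MANF was 0.0072 and that of HSP90B1 0.096.

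The gap between pools ran through most of the ER set. In the THX group 21 of the 22 ER genes were higher in pool 1 than in pool 2 (95.5%, against 49.1% of all genes tested), with a median gap of 0.33 on the log2 scale. In the Short group 20 of the 22 were higher in pool 1 (90.9%, against 51.1%), with a median gap of 0.22, and in the Long group 15 of the 22 (68.2%, against 49.9%), with a median gap of 0.08. The lowest of the 6 pools was THX pool 2 for 11 ER genes and Short pool 2 for 10, and ERN1 had its lowest value in Long pool 1. The median absolute gap of the 22 was 0.33 in THX (0.20 over all genes tested), 0.22 in Short (0.16) and 0.09 in Long (0.11). For 13 of the 22 the largest gap between 2 pools of a group exceeded the largest difference between group means, as it did for 4 of the 10 cytosolic genes. The share of all genes for which this held was not counted, and single pools vary more than means of 2. These counts are therefore not read as particular to the ER set. Pool numbers were not given as shared between groups, and no test was made of this pattern, which was seen in the data.

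**Figure D3:**
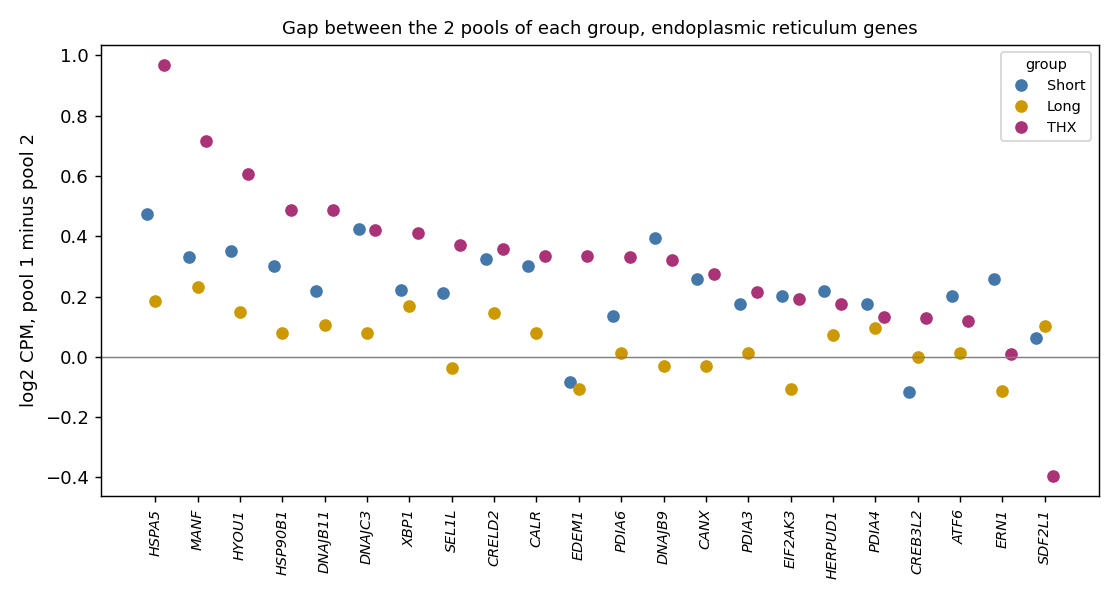
For each of the 22 ER genes the points give log2 CPM of pool 1 minus that of pool 2 in the Short, Long and THX groups, with a line at 0. HSPA5 has the widest gap, 0.97 in the THX group, and SDF2L1 is the only gene below 0 in that group, at −0.39.

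SDF2L1, an ER cofactor of DNAJB11 that is strongly stress induced in other cells, went against the rest of the set between the THX pools only. In Short and Long it was higher in pool 1, by 0.06 and 0.10 on the log2 scale. It was at 21.5 and 20.6 CPM in Short, 29.9 and 27.8 in Long and 24.4 and 32.1 in THX pools, so that THX pool 2 was the highest pool for SDF2L1 and the lowest for HSPA5. Its log2 difference was 0.45 in Long against Short pools (SE 0.137, adjusted p = 0.342) and 0.42 in THX against Short pools (SE 0.137, adjusted p = 0.149). The latter was 0.61 without THX pool 1. Markers of plasma cells, which have an expanded secretory ER, also differed between pools. The summed level of the 10 plasma and B cell markers was 44.1 and 49.6 CPM in Short, 20.3 and 101 in Long and 17.9 and 104 in THX pools. DERL3, an ER degradation factor and 1 of those markers, was at 3.71 and 9.02 CPM in THX pools, and all 8 tested markers were lower in THX pool 1, opposite to HSPA5. In Long pools 7 of the 8 were lower in pool 1, and the median gap was −0.88 there against −1.85 in THX pools. The part of these cells in the SDF2L1 value was not tested.

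The immediate early genes also differed between the same pools. Of 24 tested, 21 were lower in THX pool 1 than in pool 2 (median gap −0.33) and 23 were lower in Short pool 1 (median gap −0.37), the reverse of the ER genes. In Long pools 18 were higher in pool 1 (median gap 0.17). Of the 8 fibroblast markers tested, 7 were lower in pool 1 of THX and 7 in pool 1 of Short (median gaps −0.39 and −0.48). Of the 7 mural cell markers 6 were lower in pool 1 of THX and 7 in pool 1 of Short (median gaps −0.20 and −0.67). Of the 10 endothelial markers 5 were lower in pool 1 of THX and 9 in pool 1 of Short, and of the 6 T cell markers 5 in each. Other cell types were mixed. Lower in pool 1 of THX and of Short were 3 and 6 of 8 macrophage markers, and 6 and 2 of 7 ependymal markers. For neurons these were 3 and 3 of 6, for oligodendrocytes 4 and 3 of 6, for astrocytes 0 and 2 of 3 and for mast cells 3 and 2 of 4. All 8 plasma and B cell markers were lower in pool 1 of Short too (median gap −0.32). Of the 15 tested epithelial markers 9 were higher in pool 1 of THX and 11 in pool 1 of Short (median gaps 0.02 and 0.03). Single epithelial markers differed in both directions, from −0.42 to 0.52 in THX and from −0.10 to 0.22 in Short. The part of these differences in the ER gaps was not tested.

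The remaining ER chaperones and helpers were each higher in pool 1 than in pool 2 of both Short and THX. DNAJB11, an HSP40 partner of HSPA5, was at 56.1 and 48.1 CPM in Short, 67.8 and 62.9 in Long and 64.9 and 46.4 in THX pools. CRELD2, a stress-induced luminal protein, was at 47.1 and 37.6 CPM in Short, 57.9 and 52.4 in Long and 55.8 and 43.5 in THX pools. DNAJB9, an HSP40 that restrains ERN1, and DNAJC3, which restrains EIF2AK3, ran from 53.3 to 71.0 and from 97.3 to 143 CPM. All 9 genes of this class (HSPA5, HSP90B1, HYOU1, DNAJB9, DNAJB11, DNAJC3, SDF2L1, CRELD2 and MANF) had log2 differences below 0 in THX against Long pools (median −0.19), with both THX pools below both Long pools in DNAJB9 alone (1 of 9, against 18.7% of all genes tested). Of the 9, 8 lay above 0 in Long against Short pools (median 0.33), and both Long pools were above both Short pools in 7 (77.8%, against 26.7% of all genes tested). DNAJC3 was the gene below 0.

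The disulfide isomerases form and reshuffle disulfide bonds in the ER. PDIA6 was at 235 and 214 CPM in Short, 277 and 274 in Long and 354 and 281 in THX pools. Its groups did not overlap. The log2 difference of PDIA6 was 0.50 in THX against Short pools (SE 0.117, adjusted p = 0.0939). That difference passed in 2 of 15 alternatives, with an adjusted p of 0.00212 by DESeq2 and 0.0271 with no filter on low counts. In THX against Long pools the value was 0.20 (adjusted p = 0.711), with 0.029 without THX pool 1 and 0.36 without THX pool 2. PDIA4 was at 289 and 256 CPM in Short, 329.9 and 308 in Long and 319 and 291 in THX pools, and PDIA3 ran from 372 to 459 CPM. The lectin chaperones, which bind glycoproteins, overlapped between groups in every comparison, CALR between 319 and 418 CPM and CANX between 429 and 564 CPM.

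**Figure D4:**
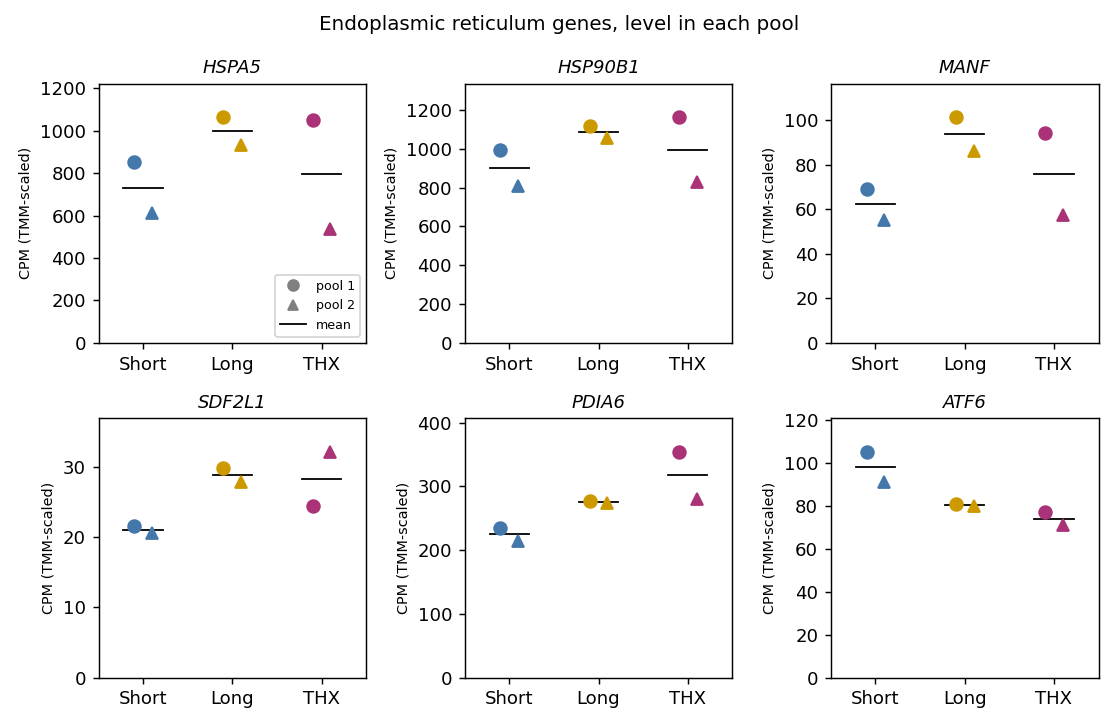
The CPM of 6 ER genes is plotted by group, with a circle for pool 1, a triangle for pool 2, a line at the mean and axes from 0. HSPA5, HSP90B1 and MANF are far apart between the 2 THX pools, SDF2L1 is reversed between them, and both Short pools of ATF6 (105 and 91.4 CPM) lie above all other pools.

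The 3 stress sensors had lower means in Long than in Short pools, with none passing the test. ATF6, the membrane-bound transcription factor that is cleaved under stress, was at 105 and 91.4 CPM in Short, 80.8 and 80.1 in Long and 77.3 and 71.1 in THX pools. The 3 groups did not overlap. The log2 difference of ATF6 was −0.29 in Long against Short pools (SE 0.0923, adjusted p = 0.342), and −0.18 without Short pool 1. In THX against Short pools it was −0.41 (SE 0.0924, adjusted p = 0.0883). The latter passed in 2 of 15 alternatives, with an adjusted p of 0.00498 by DESeq2 and 0.0372 with no filter on low counts. CREB3L2, a related membrane-bound factor, was at 114 and 124 CPM in Short, 94.94 and 95.02 in Long and 98.2 and 89.8 in THX pools. Both Short pools lay above the other 4. The log2 difference of CREB3L2 was −0.32 in Long against Short pools (SE 0.0812, adjusted p = 0.342) and −0.34 in THX against Short pools (adjusted p = 0.0964). The latter passed by DESeq2 (adjusted p = 0.0104) and in no other of the 15 alternatives.

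ERN1, the kinase and nuclease that splices XBP1, was at 27.3 and 22.8 CPM in Short, 19.3 and 20.9 in Long and 20.8 and 20.7 in THX pools. Its log2 difference was −0.32 in Long against Short (SE 0.114, adjusted p = 0.342, and −0.17 without Short pool 1) and 0.04 in THX against Long pools (95% interval −0.23 to 0.31, adjusted p = 0.98). EIF2AK3, the kinase that slows translation, was at 30.5 and 26.5 CPM in Short, 24.7 and 26.5 in Long and 28.1 and 24.6 in THX pools, with overlap throughout (Long against Short, log2 difference −0.16, adjusted p = 0.53). XBP1, the factor that induces many of these chaperones, was at 188 and 161 CPM in Short, 214 and 190.4 in Long and 223 and 168 in THX pools. Its log2 difference was 0.21 in Long against Short pools (adjusted p = 0.521) and −0.05 in THX against Long pools (adjusted p = 0.982).

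Of the genes of ER-associated degradation, which returns misfolded proteins to the cytosol, HERPUD1 and SEL1L lay on opposite sides. HERPUD1 was at 331 and 284 CPM in Short, 375 and 357 in Long and 332 and 294 in THX pools, and both Long pools lay above the rest (THX against Long, log2 difference −0.23, SE 0.103, adjusted p = 0.587). SEL1L, the scaffold of the HRD1 ligase, was at 96.7 and 83.5 CPM in Short, 67.6 and 69.3 in Long and 85.6 and 66.1 in THX pools (Long against Short, log2 difference −0.40, SE 0.134, adjusted p = 0.342). EDEM1, a mannosidase-like receptor, was at 19.2 and 20.4 CPM in Short, 17.5 and 18.9 in Long and 18.0 and 14.3 in THX pools, with no log2 difference that passed (adjusted p = 0.241 in THX against Short).

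Over the 22 ER genes, 14 lay above and 8 below 0 in Long against Short pools (median log2 difference 0.18), with both Long pools outside the Short range in 17 (12 higher and 5 lower, 77.3%, against 53.5% of all genes tested). A split by assigned topology was chosen after these values were seen. Of the 7 genes taken here to span the membrane, 6 lay below 0 (median −0.29), with HERPUD1 above it. Of the other 15, 13 lay above 0 (median 0.27). The exceptions among the 15 were DNAJC3 and EDEM1, and the placing of EDEM1 among them is uncertain. Without Short pool 1 the median of the 22 was 0.33, and without Short pool 2 it was 0.07. In THX against Long pools 18 of the 22 lay below 0 (median −0.07) but only 4 had no overlap (18.2%, against 37.2%). That median was −0.26 without THX pool 1 and 0.05 without THX pool 2. In THX against Short pools 13 lay above and 9 below 0 (median 0.05), 7 with no overlap (31.8%, against 52.5%), and the median was −0.19 without THX pool 1, 0.21 without THX pool 2, 0.21 without Short pool 1 and −0.08 without Short pool 2.

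**Figure D5:**
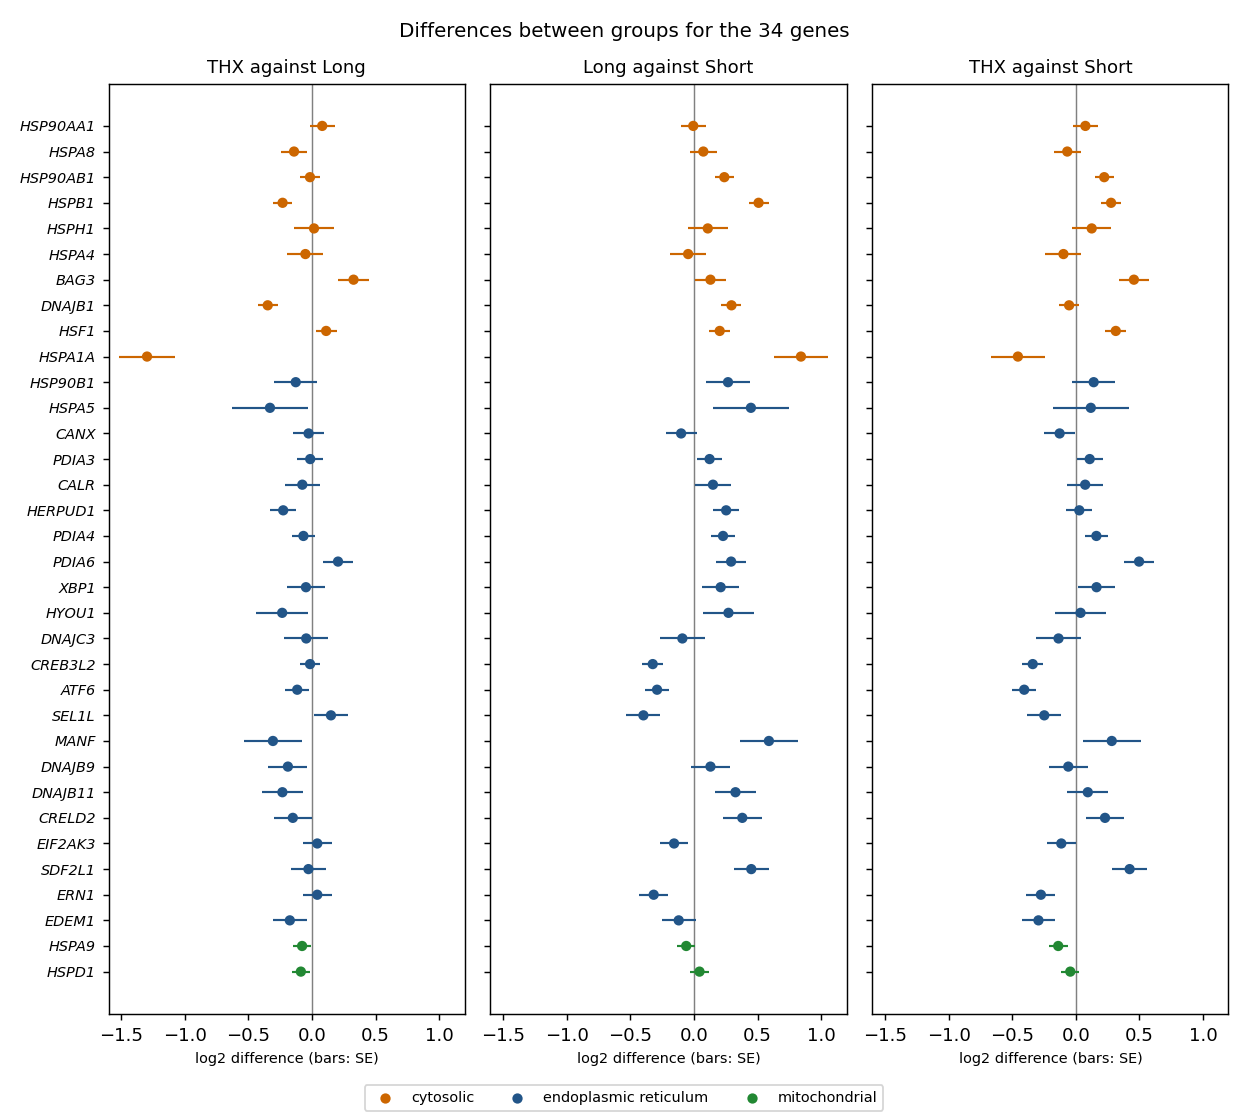
Points give the log2 difference of each of the 34 genes in the 3 comparisons and bars its SE, in orange for cytosolic, blue for ER and green for mitochondrial genes. HSPA1A stands lowest in THX against Long (−1.30) and highest in Long against Short (0.84), and ATF6, ERN1, EIF2AK3 and CREB3L2 lie left of 0 against Short in both other comparisons.

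Other genes of the ER and its stress response gave no change either. None of the 36 further folding enzymes, 20 tested degradation genes, 28 translocation and retrieval genes or 24 tested regulators changed in any comparison. In Long against Short pools 22 of the 36 folding enzymes lay above 0 (median 0.09), with FKBP2, an ER prolyl isomerase, at 0.33 and PRKCSH, the beta subunit of glucosidase II, at 0.26 (adjusted p = 0.342 for both). In the THX group 13 of the 36 were higher in pool 1 than in pool 2, unlike the 21 of 22 above. ATF4, the factor translated when EIF2AK3 is active, was at 219.5 and 229 CPM in Short, 258 and 262 in Long and 259 and 289 in THX pools. Both Short pools lay below the other 4, and the log2 difference of ATF4 was 0.29 in THX against Short (SE 0.0794, adjusted p = 0.12) and 0.22 in Long against Short pools (adjusted p = 0.342). DDIT3 (CHOP), its stress target, was at 12.8 and 14.1 CPM in Short and 18.4 and 16.7 in Long pools (log2 difference 0.39, adjusted p = 0.342). SEC11A, a subunit of the signal peptidase, was at 44.2 and 43.5 CPM in Short, 50.1 and 54.2 in Long and 59.2 and 58.6 in THX pools (THX against Short, log2 difference 0.43, adjusted p = 0.058). MBTPS2, the protease that cleaves ATF6, was at 34.3 and 29.5 CPM in Short and 24.5 and 26.1 in Long pools (log2 difference −0.34, adjusted p = 0.342).

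The 2 mitochondrial chaperones varied least. HSPD1, the chaperonin HSP60, was at 206 and 196 CPM in Short, 209 and 206 in Long and 201 and 189 in THX pools, 1.11-fold from lowest to highest. Its log2 difference in THX against Long pools was −0.09 (95% interval −0.26 to 0.08, adjusted p = 0.851). HSPA9, the mitochondrial HSP70 known as mortalin, was at 381 and 358 CPM in Short, 351 and 358 in Long and 342 and 329.6 in THX pools. Its 95% interval in THX against Short pools ran from −0.31 to 0.03 (log2 difference −0.14, adjusted p = 0.299). The 12 further mitochondrial chaperones and proteases had no gene that changed, and medians of −0.0029 in THX against Long and 0.13 in Long against Short pools.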

How the data were processed

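The authors deposited raw counts per gene for the 6 pools, with no normalisation. Per the labels' protocols libraries came from a stranded mRNA kit on polyA RNA, and featureCounts 2.0.0, TopHat2 2.1.1, bcl2fastq 2.20, SAMtools 1.9, MultiQC 1.9 and FastQC 0.11.8 are named in the submitters' processing notes. For genome build, annotation and strand setting the sources used here give nothing, so no coordinates are printed. A reference table (ARS-UI_Ramb_v3.0) was used to find genes that overlap.

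With edgeR 4.0.16 in R 4.3.3, low-count genes were removed (filterByExpr), libraries were scaled (TMM) and a quasi-likelihood model was fitted to the 6 pools with a mean for each group (3 residual and 3.96 prior degrees of freedom). Tests were two-sided F tests with Benjamini-Hochberg adjustment over 18019 genes. Intervals are the log2 difference plus or minus SE times the t quantile for those degrees of freedom, and are approximate. DESeq2 1.42.0 and limma 3.58.1 served as alternatives, with other scalings, filters and pools. The procedure was also run on simulated data. The outcome is not reported here, and no statement on power rests on it. Members and lists were chosen with earlier results of these data known. Values per pool are given for the members with the lowest unadjusted p in each comparison (5 ER, 4 cytosolic, 1 mitochondrial) and a set of anchors, and for the others that complete a class. HSPA6, HSPB6 and the other genes from further lists are among the 3 with the lowest p in their list. HSPA1L, as an overlapping gene, and the alternatives run for HSPA6 were added after their values were seen. Figures used Python 3.11.15 and matplotlib 3.10.9. No sequence is shown.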

Additional observations from a re-analysis of the deposited data

How the results depend on the processing

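In THX against Long pools the 51 genes became 92 at an adjusted p of 0.10, 448 by DESeq2, 204 with no filter on low counts, 22 with only the 4 pools compared and 2 to 37 without 1 pool. In Long against Short pools the 0 genes became 159 by DESeq2 and 0 to 4 without 1 pool. In THX against Short pools the 165 genes became 922 at an adjusted p of 0.10, 1761 by DESeq2, 259 by library totals (49 higher and 210 lower, against 57 and 108), 908 with no filter, 11 with 4 pools and 10 to 1083 without 1 pool. Chaperone and stress response genes called were 2 by DESeq2, 1 with no filter, 1 with 4 pools and 0 to 1 without 1 pool in THX against Long. They were 2 by DESeq2 in Long against Short. In THX against Short they were 3 at an adjusted p of 0.10, 7 by DESeq2, 3 with no filter and 0 to 2 without 1 pool. Where 1 pool is left out, the lone pool of that group is assumed to vary like the others.

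With the pool number as a replicate block, 392 genes and 1 of the 34 (BAG3) were called in THX against Short pools. Deviations of same-numbered pools correlated at −0.0586 (Short and Long), 0.211 (Short and THX) and 0.067 (Long and THX), so the numbers were not taken as pairs.

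Without 1 pool the medians ran from −0.22 to 0.0094 (cytosolic) and −0.26 to 0.047 (ER) in THX against Long, from −0.055 to 0.20 (cytosolic), −0.19 to 0.21 (ER) and −0.13 to −0.045 (mitochondrial) in THX against Short, and from −0.045 to 0.038 (mitochondrial) in Long against Short. Library totals, which shift the median of all genes by −0.107 in THX against Short, gave 0.0047 (cytosolic) and −0.19 (mitochondrial) there and turned the ER median from 0.055 to −0.038 (10 above and 12 below 0). They gave −0.081 (cytosolic), −0.12 (ER) and −0.13 (mitochondrial) in THX against Long and −0.059 (mitochondrial) in Long against Short.

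Single genes crossed 0 when 1 pool was left out. In THX against Long the ranges were −0.058 to 0.13 for EIF2AK3, −0.015 to 0.10 for ERN1, −0.39 to 0.096 for HSP90B1, −0.89 to 0.074 for HSPA5, −0.23 to 0.23 for HSPH1, −0.71 to 0.0072 for MANF, −0.24 to 0.15 for SDF2L1 and −0.27 to 0.14 for XBP1. In Long against Short they were −0.10 to 0.11 for HSP90AA1, −0.033 to 0.20 for HSPA8 and −0.0091 to 0.25 for HSPH1. In THX against Short they were −0.024 to 0.19 for HSP90AA1, −0.12 to 0.36 for HSP90B1, −0.45 to 0.52 for HSPA5, −0.17 to 0.058 for HSPA8, −0.089 to 0.00019 for HSPD1, −0.12 to 0.33 for HSPH1 and −0.057 to 0.35 for XBP1. By library totals the sign also turned for EIF2AK3 (−0.0049), ERN1 (−0.0068) and HSPH1 (−0.028) in THX against Long, HSPD1 (−0.0065) in Long against Short and HSP90AA1 (−0.022) in THX against Short. It turned for HSP90AA1 in Long against Short with 4 pools (0.0011), and for HSPH1 in THX against Long by limma-voom (−0.0027) and with the block (−0.0024). Other values kept their sign without 1 pool but moved by over 1.5 times. The ranges were −0.18 to −0.057 for ATF6, 0.20 to 0.47 for BAG3, −0.50 to −0.0096 for DNAJB11, −0.35 to −0.017 for EDEM1, −0.32 to −0.14 for HERPUD1, 0.023 to 0.19 for HSF1, −0.23 to −0.055 for HSPA8 and 0.029 to 0.36 for PDIA6 in THX against Long, −0.38 to −0.18 for ATF6, −0.25 to −0.047 for EIF2AK3, −0.44 to −0.17 for ERN1, 0.13 to 0.43 for HSP90B1, 0.52 to 1.28 for HSPA1A, 0.23 to 0.71 for HSPA5 and 0.11 to 0.33 for XBP1 in Long against Short, and −0.21 to −0.0047 for EIF2AK3, −0.39 to −0.13 for ERN1, −0.78 to −0.020 for HSPA1A, −0.42 to −0.21 for HSPA6, −0.18 to −0.088 for HSPA9, 0.32 to 0.65 for PDIA6 and 0.21 to 0.61 for SDF2L1 in THX against Short. In THX against Long, HSP90AA1 (0.017 to 0.14) and HSPD1 (−0.13 to −0.044) also moved by over 1.5 times. So did HSPD1 (0.012 to 0.086) and HSPA9 (−0.10 to −0.010) in Long against Short. The cause of these changes was not tested. The spread between pools of a group, averaged over genes, was 28.5-fold the counting variance in Short, 16.2-fold in Long and 71.4-fold in THX.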
